A study of Mus musculus with 12 samples.

Results

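The genes described here act at the passage of the cell cycle from G1 into S phase. They are the D cyclins Ccnd1, Ccnd2 and Ccnd3, their partner kinase Cdk6, the E cyclins Ccne1 and Ccne2, the Cip/Kip inhibitors Cdkn1a (p21) and Cdkn1b (p27), and the INK4 locus genes Cdkn2a (p16Ink4a and p19Arf) and Cdkn2b (p15Ink4b). They were chosen by name: every probe that is no control and carries 1 of these 10 gene names in the scanner files was taken, which gave 17 of the 55681 probes. Total RNA of 12 samples was measured on Agilent one-colour arrays. The samples were 4 of mouse embryonic stem cells (mESC) labelled Tbx3-high, 4 of mESC labelled Tbx3-low, 2 of induced pluripotent stem cells (iPSC, somatic cells reprogrammed to pluripotency) labelled Tbx3 null, and 2 of iPSC labelled Tbx3 wild type. Tbx3 is a T-box transcription factor, and the study asked what it does in the network that maintains pluripotency. Strain, passage, culture medium, the way high and low cells were separated, the part of Tbx3 missing from the null allele and the number of clones behind each group could not be taken from the labels.

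Cyclin D bound to Cdk4 or Cdk6 begins the phosphorylation of the retinoblastoma protein, and cyclin E bound to Cdk2 completes it, which frees E2F factors to switch on S phase genes. INK4 proteins bind Cdk4 and Cdk6, whereas p21 and p27 act mainly on Cdk2 complexes, and p19Arf protects p53 by holding Mdm2. Mouse embryonic stem cells are known for a short G1 phase, with abundant cyclin E and little D cyclin and inhibitor activity. Cdkn2a and Cdkn1a are known targets of repression by T-box factors, Tbx2 and Tbx3 among them.

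Levels are given as log2 of the processed signal relative to the 75th percentile of the same array, so 0 is the signal of a spot at that percentile, and a change is a difference of such levels. Probes of different sequence bind with different strength, so only 1 probe at a time was compared between groups. The Tbx3 probe, which starts at base 4554 of its transcript, followed the mESC labels. Its level was 7.20, 7.23, 7.28 and 7.20 in Tbx3-high and 5.91, 5.92, 5.92 and 5.90 in Tbx3-low mESC. The change was 1.31 ± 0.08 (SE; adjusted p = 7.73e-07 by limma). In the iPSC it stood at 5.68 and 5.66 on the arrays labelled null and at 5.16 and 5.52 in wild type, so the arrays labelled null were higher by 0.33 ± 0.11 (adjusted p = 0.0458). Whether that probe lies in the missing part of the gene is not known, so it does not check the null label, and these are called the arrays labelled null throughout.

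All 8 mESC arrays lay on 1 slide and all 4 iPSC arrays on another, so cell type and slide cannot be told apart and no level was compared between mESC and iPSC. On each slide the groups also filled separate columns (Tbx3-low and wild type in columns 1 and 2, Tbx3-high and labelled null in columns 3 and 4), so column and group cannot be told apart either. Each of the 2 rows of the mESC slide held arrays of both groups. The 75th percentile signal was 280 to 412 intensity units on mESC arrays and 620 to 898 on iPSC arrays. Of the spots, 55.9% to 64.8% were well above background on mESC arrays and 62.4% to 68.6% on iPSC arrays. Whether each array had its own culture is not stated in the labels; p-values then reflect only how these samples vary, which may be technical variation.

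Cyclin E1, Cdkn2a and Cdkn2b were lower and cyclin D3 and Cdkn1b higher in Tbx3-high than in Tbx3-low mESC. The largest shifts were those of the neighbouring INK4 locus genes, Cdkn2b at 2.01-fold and Cdkn2a at 1.94-fold lower. Of the 17 probes 15 were bright enough to be tested, meaning that all arrays of the high group, the low group or both were well above background; the exceptions were the Ccne2 probe and 1 of the Cdkn1b probes. Of these 15 probes 11 passed an adjusted p of 0.05, against 25.0% of all 30691 probes tested: 4 were higher (Ccnd3 by both probes, Cdkn1b, Cdk6) and 7 lower (Ccne1, Cdkn2a and Cdkn2b by both probes each, Cdkn1a by 1 of 3). The share called was 13.2% in the higher and 11.8% in the lower direction over all probes. Probes of 1 gene are not independent, and counted by gene 3 of the 9 tested were higher and 4 lower. The genes were chosen with earlier results of these data known, so the share of 11 in 15 is a description, not a test. Cdk6 entered the test only through the high group, where it was brighter, so its call is not taken as support. In 11 of the 15 probes the high and low arrays did not overlap, against 28.2% of all probes. The median change of the 15 was -0.32 beside 0.03 over all probes tested, and their median absolute change was 0.50 beside 0.18. In bulk RNA fewer cells of a type and less RNA per cell cannot be told apart.

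**Figure D1:**
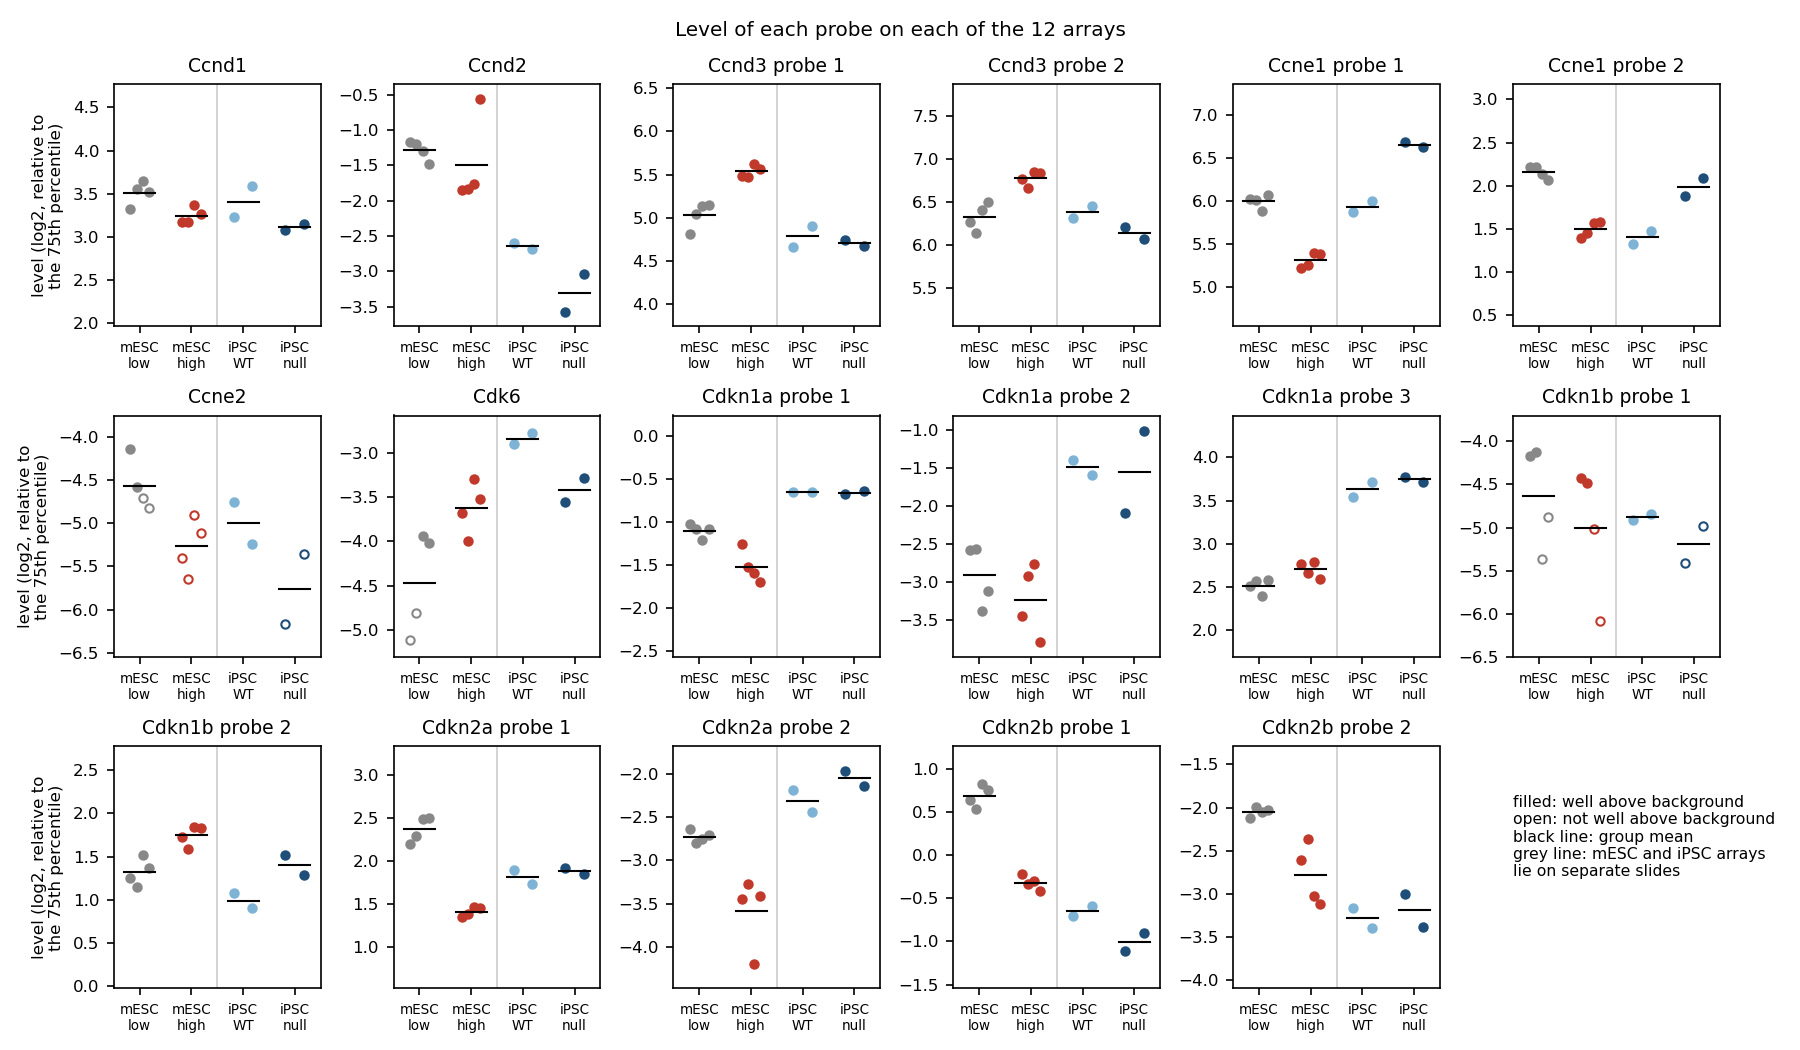
Level (log2, relative to the 75th percentile of the array) of each of the 17 probes on each of the 12 arrays, 1 panel per probe with its own axis, 1 point per array and a black line at the group mean; open points were not well above background. The Cdkn2a and Cdkn2b panels show the 4 Tbx3-high arrays below all 4 Tbx3-low arrays, the Ccnd3 panels show them above, and in the Ccnd2 panel Tbx3-high replicate 4 stands apart at -0.56.

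The D cyclins did not move as 1 group. Ccnd3 was measured by probe 1 at chr17:47736267-47736326 and probe 2 at chr17:47736579-47736638 (mm9, plus strand; all probe positions below are on mm9). Probe 1 read 5.49, 5.47, 5.62 and 5.56 in Tbx3-high and 4.82, 5.04, 5.14 and 5.14 in Tbx3-low mESC. Every high array was above every low array, and the change was 0.50 ± 0.09, or 1.42-fold (adjusted p = 0.00186). Probe 2 read 6.76, 6.66, 6.85 and 6.83 in high and 6.27, 6.15, 6.41 and 6.51 in low arrays, again without overlap, a change of 0.44 ± 0.09 (adjusted p = 0.00377). On the second row of the slide alone probe 2 gave 0.39 with an adjusted p of 0.0513.

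Ccnd1, the D cyclin most responsive to growth factors, had 1 probe (chr7:152116202-152116261). It read 3.17, 3.17, 3.37 and 3.26 in Tbx3-high and 3.32, 3.56, 3.65 and 3.52 in Tbx3-low mESC, so the groups overlapped in 1 pair of arrays. The difference of -0.27 ± 0.10 did not pass (adjusted p = 0.0706). It passed in 5 of 18 alternative settings, among them quantile normalization (adjusted p = 0.0284), the slide row as a block (0.0454) and the fit without Tbx3-low replicate 1, where it was -0.33 (0.0357).

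Ccnd2 (chr6:127098696-127098755) turned on 1 array. Its level was -1.84, -1.83, -1.76 and -0.56 in Tbx3-high replicates 1 to 4 and -1.17, -1.20, -1.30 and -1.47 in Tbx3-low. Replicates 1 to 3 lay below all low arrays and replicate 4 above all of them. The difference over all arrays was -0.21 ± 0.26 (adjusted p = 0.614), and without Tbx3-high replicate 4 it was -0.52 (adjusted p = 0.0156).

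Cdk6, the kinase partner of D cyclins, was close to background (chr5:3522106-3522165). It read -3.68, -3.99, -3.30 and -3.53 in Tbx3-high and -5.11, -4.81, -3.94 and -4.02 in Tbx3-low mESC, and the first 2 low arrays were not well above background. The high array at -3.99 lay below the low array at -3.94, so the groups overlapped. The change of 0.84 ± 0.25 passed (adjusted p = 0.0303), but only 9 of 18 alternatives kept the call. The probe was tested only because all arrays of the Tbx3-high group, the brighter one, were well above background. With no filter on dim probes the adjusted p was 0.0843, and with only the mESC arrays fitted it was 0.0555. With normexp background correction the change was 0.18 (adjusted p = 0.161). Leaving out Tbx3-low replicate 1 gave 0.63 (adjusted p = 0.0691), and leaving out Tbx3-low replicate 2 gave 0.73 (0.0832). Without Tbx3-high replicate 1, 3 or 4 the changes were 0.86 (0.0567), 0.74 (0.0797) and 0.81 (0.0701).

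Of the E cyclins, Ccne1 fell by both of its probes. Probe 1 (chr7:38882937-38882960 in the files, which give the position of only 24 of its 60 bases, minus strand) starts at base 1874 of the transcript. Probe 2 (chr7:38885574-38885633, minus strand) starts at base 741, inside the coding sequence. Its 60 bases are shown because Ccne1 is the gene that passed in both cell types, in lower case throughout since no stretch is singled out.
Ccne1 probe 2: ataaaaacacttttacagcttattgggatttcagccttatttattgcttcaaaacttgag
Probe 1 read 5.22, 5.25, 5.40 and 5.39 in Tbx3-high and 6.02, 6.01, 5.89 and 6.06 in Tbx3-low mESC, a change of -0.68 ± 0.07, or 1.60-fold lower (adjusted p = 4.76e-05). Probe 2 read 1.39, 1.46, 1.57 and 1.58 in high and 2.22, 2.21, 2.14 and 2.07 in low arrays, a change of -0.66 ± 0.08 (adjusted p = 0.000112). For both probes all high arrays lay below all low arrays, and the calls held in each slide row alone. Ccne2 (chr4:11131423-11131482), the second E cyclin, was not well above background on any Tbx3-high array and on only 2 of the 4 Tbx3-low arrays, where it read -4.14 and -4.58, so it was not tested.

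Among the Cip/Kip inhibitors Cdkn1b was higher by 1 probe and Cdkn1a lower by 1 probe. Cdkn1b probe 2 (chr6:134875424-134875483) read 1.73, 1.59, 1.85 and 1.82 in Tbx3-high and 1.25, 1.15, 1.52 and 1.37 in Tbx3-low mESC. The groups did not overlap, and the change was 0.43 ± 0.10, or 1.34-fold higher (adjusted p = 0.00937). It was 0.46 on the first slide row alone (adjusted p = 0.0579) and 0.39 on the second (0.0820). Cdkn1b probe 1 (chr6:134873606-134873665) was well above background on 2 of 4 arrays of each mESC group and was not tested.

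Cdkn1a has 3 probes. Probe 1 (chr17:29227986-29228045) starts at base 55 of transcript variant 2, near its 5′ end, and probe 3 (chr17:29237377-29237436, the mean of 10 spots) starts at base 1619 of the main transcript, near its 3′ end. Probe 1 read -1.26, -1.52, -1.59 and -1.69 in Tbx3-high and -1.03, -1.08, -1.21 and -1.08 in Tbx3-low mESC, with no overlap and a change of -0.42 ± 0.09 (adjusted p = 0.0063). On the first slide row alone it was -0.34 (adjusted p = 0.100). Probe 3 read 2.77, 2.67, 2.78 and 2.59 in high and 2.51, 2.57, 2.40 and 2.57 in low arrays. There the high arrays were the upper ones and again did not overlap with the low arrays, but the difference of 0.19 ± 0.07 did not pass (adjusted p = 0.0908). Probe 2 (chr17:29235299-29235358) read -3.79 to -2.77 in high and -3.38 to -2.57 in low arrays, a difference of -0.32 ± 0.29 (adjusted p = 0.472).

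The difference between 2 probes of 1 gene was compared within arrays for the 7 pairs of probes tested in mESC, a test added after the values were seen. Probe 1 minus probe 3 of Cdkn1a was lower by 0.61 in Tbx3-high than in Tbx3-low arrays (exact permutation test, two-sided, p = 0.0286, the smallest that 4 against 4 arrays allow, and 0.2 adjusted over the 7 pairs). The other 6 pairs gave p of at least 0.171 by the same exact test. A single pair at that smallest p cannot adjust below 0.2 over 7 pairs, so the adjusted test could not decide. Of the 3 Cdkn1a probes only probe 1 passed in mESC, and whether the probes differ in direction stays undecided.

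The INK4 locus genes fell by all 4 probes. Cdkn2a probe 1 (chr4:88920405-88920464, minus strand) read 1.35, 1.38, 1.47 and 1.45 in Tbx3-high and 2.20, 2.29, 2.49 and 2.50 in Tbx3-low mESC, a change of -0.95 ± 0.08, or 1.94-fold lower (adjusted p = 1.29e-05). Probe 2 (chr4:88920543-88920602) read -3.45, -3.27, -4.20 and -3.42 in high and -2.64, -2.80, -2.75 and -2.70 in low arrays, a change of -0.86 ± 0.17 (adjusted p = 0.00381). High and low arrays were apart for both probes, and both calls held in each slide row alone. With normexp background correction probe 2 gave -0.27 and still passed. The files assign both probes to both Cdkn2a transcripts, so the messages for p16Ink4a and p19Arf were not told apart.

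Cdkn2b, the neighbour of Cdkn2a on chromosome 4, showed the largest change of the 15 probes. Its probe 1 (chr4:88952276-88952335, minus strand) read -0.22, -0.34, -0.31 and -0.42 in Tbx3-high and 0.64, 0.53, 0.83 and 0.76 in Tbx3-low mESC, a change of -1.01 ± 0.09, or 2.01-fold lower (adjusted p = 1.07e-05). Probe 2 (chr4:88952720-88952779) read -2.60, -2.36, -3.02 and -3.12 in high and -2.12, -1.99, -2.05 and -2.03 in low arrays, a change of -0.73 ± 0.16 (adjusted p = 0.00591). Neither probe showed overlap between the groups. On the first slide row alone probe 2 gave -0.43 (adjusted p = 0.143). Mtap, the gene on the other side of Cdkn2a in the RefSeq gene order, gave -0.01 ± 0.12 (adjusted p = 0.981), and Dmrta1, beyond Cdkn2b, was too dim to be tested.

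**Figure D2:**
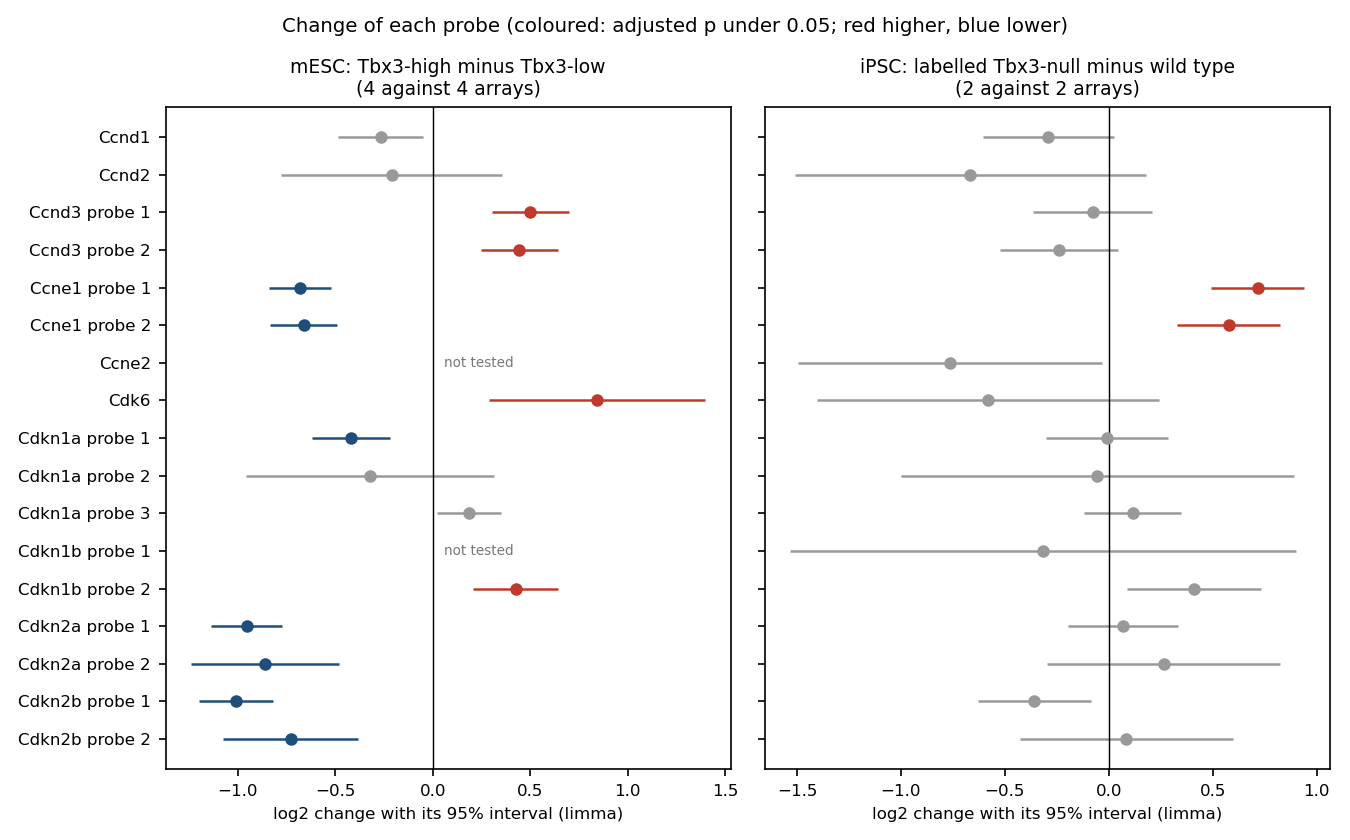
Log2 change of each tested probe with its 95% interval from limma, left for Tbx3-high minus Tbx3-low mESC (15 probes, with Ccne2 and Cdkn1b probe 1 marked as not tested) and right for iPSC labelled Tbx3-null minus wild type (17 probes); coloured points passed an adjusted p of 0.05. On the left 7 probes are lower and 4 higher, with Cdkn2b probe 1 farthest from 0 at -1.01, and on the right the Ccne1 probes are coloured at 0.72 and 0.58.

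All starts that the promoter table gives for the genes that T-box factors are known to repress, and for Cdkn2b beside them, are shown because the T-box half-site AGGTGTGA was searched there. Each sequence runs from 250 bases before to 50 bases after the annotated start, on the strand of the gene, from RefSeq on GRCm38.p6, and capitals mark matches to AGGTGTGA or to its shorter form GGTGTG on either strand.
Cdkn1a, first start, chr17:29090729-29091028, plus strand: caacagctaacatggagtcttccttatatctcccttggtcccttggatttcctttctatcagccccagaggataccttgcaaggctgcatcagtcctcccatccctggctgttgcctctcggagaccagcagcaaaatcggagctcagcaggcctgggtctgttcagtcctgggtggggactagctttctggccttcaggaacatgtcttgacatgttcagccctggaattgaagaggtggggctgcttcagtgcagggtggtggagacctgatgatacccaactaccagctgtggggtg
Cdkn1a, second start, chr17:29093519-29093818, plus strand: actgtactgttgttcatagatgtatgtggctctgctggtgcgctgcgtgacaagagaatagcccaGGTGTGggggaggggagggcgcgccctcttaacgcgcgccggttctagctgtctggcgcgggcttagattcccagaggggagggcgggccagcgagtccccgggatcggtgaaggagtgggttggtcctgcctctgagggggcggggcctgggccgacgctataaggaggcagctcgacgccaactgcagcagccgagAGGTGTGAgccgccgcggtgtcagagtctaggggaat
Cdkn2a, Ink4a start, chr4:89282143-89282442, minus strand: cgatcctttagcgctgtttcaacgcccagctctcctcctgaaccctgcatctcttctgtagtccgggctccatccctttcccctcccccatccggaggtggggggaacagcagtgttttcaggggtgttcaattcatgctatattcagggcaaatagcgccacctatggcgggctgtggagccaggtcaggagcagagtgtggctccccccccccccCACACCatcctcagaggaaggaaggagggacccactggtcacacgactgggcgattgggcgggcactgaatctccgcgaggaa
Cdkn2a, Arf start, chr4:89294570-89294869, minus strand: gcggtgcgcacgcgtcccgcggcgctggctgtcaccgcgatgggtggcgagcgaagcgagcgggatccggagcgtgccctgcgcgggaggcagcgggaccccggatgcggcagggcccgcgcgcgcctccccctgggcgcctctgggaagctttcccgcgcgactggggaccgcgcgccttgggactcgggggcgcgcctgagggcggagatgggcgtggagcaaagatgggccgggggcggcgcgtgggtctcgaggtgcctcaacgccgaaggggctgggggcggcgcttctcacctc
Cdkn2b, chr4:89310983-89311282, minus strand: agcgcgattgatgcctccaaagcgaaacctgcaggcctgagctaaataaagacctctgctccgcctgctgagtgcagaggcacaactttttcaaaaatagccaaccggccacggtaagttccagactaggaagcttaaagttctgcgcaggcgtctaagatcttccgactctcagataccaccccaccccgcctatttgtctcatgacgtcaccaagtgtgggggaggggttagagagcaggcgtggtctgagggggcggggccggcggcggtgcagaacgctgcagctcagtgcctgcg
The full AGGTGTGA lay in the window of the second Cdkn1a start, 13 bases after that start, and 1.28% of the 32851 promoters in the table hold it on either strand. GGTGTGA, part of the same match, occurs in 3.98% of promoters. GGTGTG occurs in 19%, and it lay 185 bases before the second start of Cdkn1a and, on the opposite strand (printed as CACACC), 33 bases before the Ink4a start. No other match was found in the 10 promoters that the table gives for 7 of the genes (Ccnd3, Ccne1, Cdk6, Cdkn1a, Cdkn1b, Cdkn2a and Cdkn2b). The E2F forms TTTCGCGC, TTTGGCGC and TTCCCGCC, found in 0.323%, 0.514% and 2.19% of promoters on either strand, matched in 0 of the 10 windows. A match is a match of letters, not a measured site. The table does not pair starts with transcripts, so it does not show which Cdkn1a start gives the variant that probe 1 reads.

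In the iPSC, Ccne1 rose on the arrays labelled null and no other gene of the 10 passed. All 17 probes were tested, and 2 passed, both of Ccne1 and both higher, against 28.1% of all 36712 probes tested (15.5% higher and 12.6% lower). By limma none passed in the lower direction, where 2 had an unadjusted p under 0.05. With 2 arrays a group, 12 of the 17 probes did not overlap between the groups, against 66.5% of all probes. The median absolute change of the 17 was 0.29 beside 0.31 over all probes tested, and their median change was -0.05 beside 0.06.

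Ccne1 probe 1 read 6.68 and 6.62 on the arrays labelled null and 5.87 and 6.0 in wild type, a change of 0.72 ± 0.10, or 1.64-fold higher (adjusted p = 0.000488). Probe 2 read 1.88 and 2.09 on the arrays labelled null and 1.33 and 1.48 in wild type, a change of 0.58 ± 0.11, or 1.49-fold higher (adjusted p = 0.00327). Neither probe overlapped between the groups, and both calls held in every alternative run.

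The inhibitors Cdkn1b and Cdkn2b came near the threshold in the iPSC. Cdkn1b probe 2 read 1.51 and 1.28 on the arrays labelled null and 1.07 and 0.90 in wild type, a difference of 0.41 ± 0.14 (adjusted p = 0.0584). It passed in 4 of 11 alternatives, among them normexp correction (adjusted p = 0.0201). Cdkn2b probe 1 read -1.11 and -0.90 on the arrays labelled null and -0.71 and -0.59 in wild type, a difference of -0.36 ± 0.12 (adjusted p = 0.0540), and it also passed in 4 of 11 alternatives. Without replicate 2 labelled null it was -0.46 (adjusted p = 0.0496).

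The other genes gave smaller or less certain differences between arrays labelled null and wild type. Cdkn2a probe 1 read 1.92 and 1.85 against 1.90 and 1.74, with overlap and a difference of 0.07 ± 0.12 whose 95% interval ran from -0.20 to 0.34 (adjusted p = 0.731). Cdkn2a probe 2 differed by 0.26 ± 0.25 (0.503) and Cdkn2b probe 2 by 0.08 ± 0.23 (0.839). The 3 Cdkn1a probes differed by -0.01 ± 0.13, -0.05 ± 0.42 and 0.11 ± 0.11, with adjusted p of 0.485 to 0.976.

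Among the D cyclins, Ccnd1 read 3.08 and 3.15 on the arrays labelled null and 3.23 and 3.59 in wild type, a difference of -0.29 ± 0.14 (adjusted p = 0.164). The Ccnd3 probes differed by -0.08 ± 0.13 (0.721) and -0.24 ± 0.13 (0.203). Ccnd1 and Ccnd3 probe 2 passed under quantile normalization, at -0.42 (0.0327) and -0.43 (0.0209). Ccnd2 read -3.58 and -3.03 against -2.59 and -2.68, a difference of -0.67 ± 0.38 (0.235), and Cdk6 read -3.56 and -3.28 against -2.90 and -2.78, a difference of -0.58 ± 0.37 (0.292). Ccne2 and Cdkn1b probe 1 were not well above background on the arrays labelled null. Both were tested only through wild type, the brighter group. Against the lowest signal well above background the bounds were 1.17-fold and 1.23-fold lower there. The fitted changes did not pass (adjusted p of 0.117 and 0.733), so no minimum fold is established. With normexp correction both turned positive, at 0.0893 for Ccne2 and 0.0914 for Cdkn1b probe 1. Without replicate 2 labelled null, Ccne2 was -1.17 (adjusted p = 0.0452).

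To ask whether the genes followed the Tbx3 label in the same way in both cell types, the change from low to high in mESC was set against that from labelled null to wild type in iPSC. Of the 17 probes 5 differed between the 2 comparisons by limma, against 22.3% of the 37071 probes tested. Of these 1 was more positive in mESC and 4 more negative, against 12.2% and 10.1%. The count includes Ccne2, tested only through wild-type iPSC and not taken as support. Cell type, slide and the kind of Tbx3 label differ together here and cannot be told apart. The Tbx3 probe was higher in Tbx3-high mESC but also on the arrays labelled null, a difference of 1.64 ± 0.13 (adjusted p = 2.51e-05). For Ccne1 the changes were -0.68 and -0.72 by probe 1 and -0.66 and -0.58 by probe 2. The differences were 0.04, with a 95% interval of -0.24 to 0.31 (adjusted p = 0.878), and -0.08, with an interval of -0.39 to 0.22 (0.723). So Ccne1 was lower in Tbx3-high mESC than in Tbx3-low mESC, and lower in wild-type iPSC than on the arrays labelled null, by amounts whose difference was not resolved within those intervals.

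Of the 9 inhibitor probes, 1 each of Cdkn2b, Cdkn2a and Cdkn1b differed between the mESC and the iPSC comparison. Cdkn2b probe 1 changed by -1.01 in mESC and by 0.36 in iPSC, a difference of -1.37 ± 0.15 (adjusted p = 0.000172). Cdkn2a probe 1 changed by -0.95 in mESC and by -0.07 in iPSC, a difference of -0.88 ± 0.15 (0.00205). Cdkn1b probe 2 changed by 0.43 and by -0.41, a difference of 0.84 ± 0.18 (0.00763). These 3 differences passed in all 19 alternatives run. The second probes of Cdkn2a and Cdkn2b gave -0.60 ± 0.31 (0.209) and -0.64 ± 0.28 (0.137) and did not pass; without Tbx3-high replicate 2, Cdkn2b probe 2 passed at -0.78 (0.0422). Nor did Cdkn1b probe 1 (0.529) or the 3 Cdkn1a probes (0.0881, 0.671 and 0.127).

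For Ccnd1 the changes of -0.27 and 0.29 differed by -0.56 ± 0.17 (adjusted p = 0.0436), a call lost in 10 of 19 alternatives, 9 of which left out 1 array. It held without Tbx3-low replicate 1, Tbx3-high replicate 3 or wild-type replicate 1 and was lost without any of the other 9 arrays, with the smallest difference, -0.38 (0.183), without wild-type replicate 2. For Ccne2 the difference was -1.47 ± 0.40 (0.0260), but wild-type iPSC were the only group with all arrays well above background for this probe. With signals under the lowest well above background set to that floor the difference was -0.52, and with normexp correction -0.01 (0.979). Without labelled null replicate 1 it was -1.06 (0.121), and without wild-type replicate 1 -1.23 (0.123). Among the probes that did not pass, Ccnd2 gave -0.88 ± 0.46 (0.220) and passed at -1.19 (0.00523) without Tbx3-high replicate 4. Cdkn1a probe 1 gave -0.43 ± 0.16 (0.0881) and passed at -0.51 (0.0173) without Tbx3-high replicate 1, when blocked by slide row (0.0405) and on the series table (0.0369). Ccnd3 probe 1 gave 0.42 ± 0.16 (0.0828) and also passed when blocked by slide row (0.0411).

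**Figure D3:**
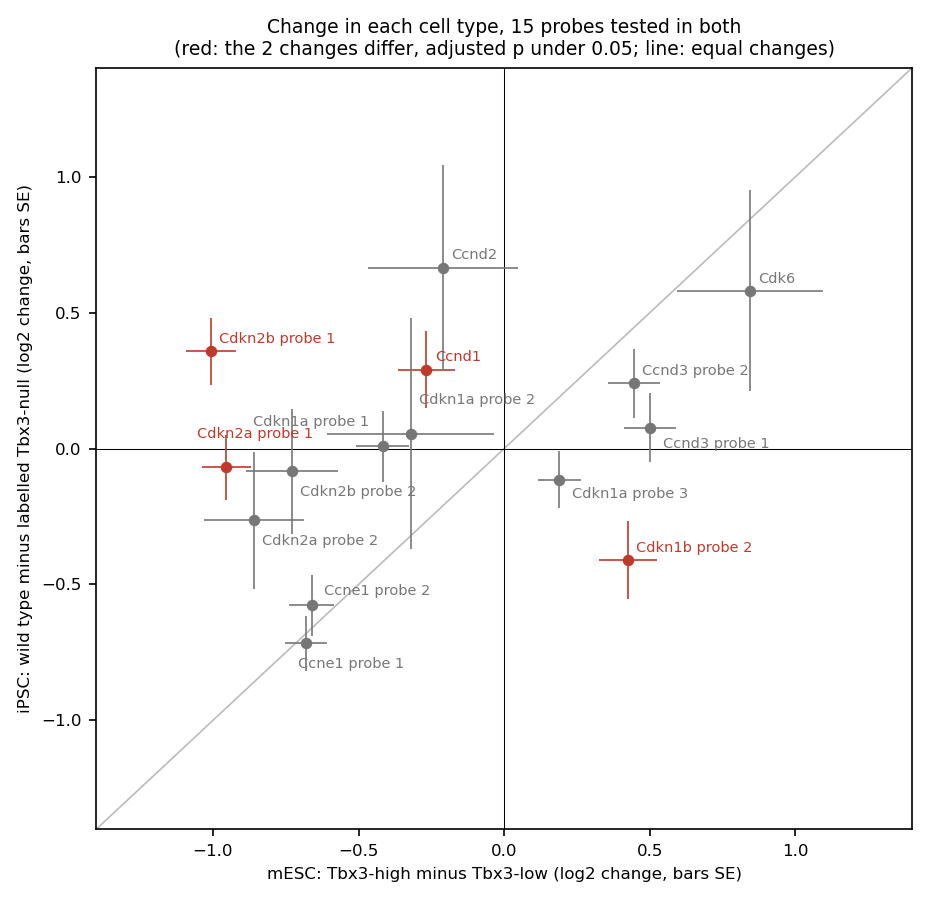
Log2 change of the 15 probes tested in both cell types, Tbx3-high minus Tbx3-low mESC on the x axis and wild type minus labelled Tbx3-null iPSC on the y axis, with bars of 1 standard error and a grey line where both are equal; red probes differed between the cell types. The Ccne1 probes lie close to the line, and Cdkn2b, Cdkn2a, Cdkn1b and Ccnd1 lie off it.

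Kinases and other inhibitors of the pathway changed in both directions, each gene measured through its brightest probe. Beside these and the following list counts stand the shares over all probes tested, 13.2% higher and 11.8% lower in mESC and 15.5% higher and 12.6% lower in iPSC, and nothing is read from a list's count as particular to it. In mESC, 2 of 11 kinases and partners rose and 2 fell, among them Ccna1, the germ-line A cyclin, at 0.61 ± 0.11 (adjusted p = 0.00184), and the phosphatases Cdc25a at -0.34 ± 0.08 (0.00838) and Cdc25c at 0.33 ± 0.08 (0.0138). Of the 4 other genes named as CDK inhibitors, Cdkn1c (p57), a Cip/Kip gene expressed from the maternal allele, fell by 1.15 ± 0.19 (0.00106). Cdkn3, on this list by its name alone, rose by 0.32 ± 0.07 (0.00457). In iPSC, Cdkn1c rose on the arrays labelled null by 1.55 ± 0.28 (0.00214) and Cdkn3 by 0.37 ± 0.09 (0.0137). For Cdkn1c the change with the Tbx3 label did not differ detectably between the mESC and the iPSC comparison (0.40 ± 0.34, adjusted p = 0.459). For Cdkn3 it did differ (0.69 ± 0.11, adjusted p = 0.00201). Of the 11 kinases and partners in iPSC, 3 rose and 2 fell. Those that fell were Ccna1 and Ccnh, the cyclin of Cdk7, the latter at -0.53 ± 0.11 (0.00484). Mnat1, the assembly factor of that kinase, rose by 0.43 ± 0.10 (0.00918). Ccna1 was not well above background on the arrays labelled null and was tested only through wild type, the brighter group. Its call (adjusted p = 0.0020) is therefore not taken as support, and no bound on its fold is given.

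Downstream, the retinoblastoma family and the E2F factors were mixed. In mESC 3 of 14 rose and 3 fell, with E2f2 at 0.86 ± 0.06 (adjusted p = 3.00e-06), Rbl1 (p107) at 0.44 ± 0.08 (0.00221) and Rb1 at -0.34 ± 0.08 (0.0101). In iPSC 3 of 14 rose and 1 fell on the arrays labelled null, with E2f7, a repressive E2F, at 0.94 ± 0.09 (4.92e-05), E2f1 at 0.51 ± 0.11 (0.00483) and E2f2 at -0.32 ± 0.09 (0.0180).

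Of the S phase genes that E2F factors drive, 1 passed in each cell type. In mESC 1 of 14 fell, the replication licensing factor Cdc6, by 0.32 ± 0.08 (adjusted p = 0.00966), and the other 13 did not pass; the list's median change was 0.03, as over all probes. In iPSC 1 of 14 rose, the replication clamp Pcna, by 0.49 ± 0.09 (0.00199); 11 of the 14 values were positive and their median was 0.16, beside 0.06 over all probes. Of 12 mitotic genes 2 rose in mESC, Mybl2 by 0.28 ± 0.07 (0.0132) and Ccnb2 by 0.27 ± 0.08 (0.0349). On the arrays labelled null 2 of the 12 rose and 1 fell, with Mybl2 at 0.57 ± 0.10 (0.00177), the proliferation marker Mki67 at -0.41 ± 0.10 (0.0131) and the checkpoint kinase Bub1 at 0.44 ± 0.12 (0.0232).

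Genes that control the turnover or the transcription of the G1 genes gave some of the larger values. Skp1a, a core subunit of SCF ubiquitin ligases, fell by 0.44 ± 0.07 in Tbx3-high mESC (adjusted p = 0.000513) and rose by 0.78 ± 0.09 on the arrays labelled null (0.000145). Skp2, the SCF receptor for p27, rose there by 0.76 ± 0.17 (0.00784). Of the 11 turnover genes 1 rose and 1 fell in mESC, and 3 rose in iPSC. Mycn, a factor that drives Ccnd2 and E2F targets, fell by 1.01 ± 0.12 in Tbx3-high mESC (0.000118) and rose by 1.50 ± 0.18 on the arrays labelled null (0.000141). Kdm2b, which recruits Polycomb to CpG islands and is known to repress Cdkn2b, rose by 0.53 ± 0.08 in mESC (0.000677), and Mdm2 fell by 0.47 ± 0.09 (0.0023). Of 16 tested regulators 4 rose and 3 fell in mESC. Of 17 in iPSC 4 rose and 4 fell, counting Tbx2, which was tested only through wild type, the brighter group. Foxo3, a factor that induces Cdkn1b, fell by 1.05 ± 0.17 (0.0013) on the arrays labelled null, and Myc fell by 0.72 ± 0.13 (0.00248).

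**Figure D4:**
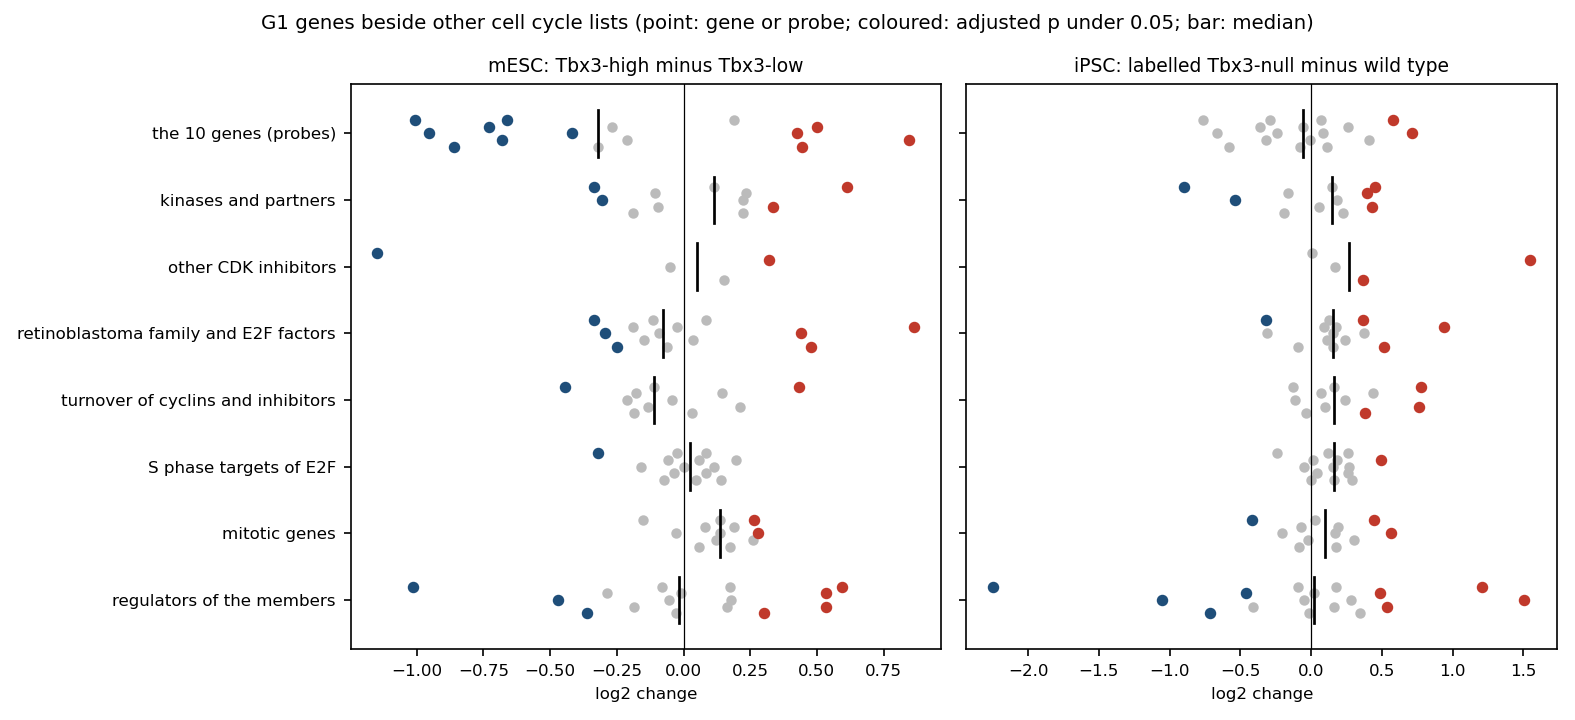
Log2 change of the tested probes of the 10 genes (top row) and of the genes of 7 cell cycle lists, left in mESC and right in iPSC, with 1 point per probe or gene, coloured where the adjusted p was under 0.05, and a bar at the median. In mESC the probes of the 10 genes spread from -1.01 to 0.84, the upper end being the dim Cdk6 probe. Single genes of other lists lie as far from 0, among them Cdkn1c at -1.15, Mycn at -1.01 and E2f2 at 0.86. The S phase targets lie close to 0, with a median of 0.03. Points of dim groups (Cdk6, Ccne2, Tbx2, Ccna1) are fitted values, not bounds.

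Markers of pluripotent cells and of other cell types differed between the same groups. Of the 12 pluripotency markers 7 were higher and 1 lower in Tbx3-high mESC, with a median change of 0.29, and 2 were higher on the arrays labelled null, with a median of 0.18. All 12 were well above background on every array, and their summed level (in units of the 75th percentile signal of the array) was 868 to 967 in Tbx3-high, 800 to 870 in Tbx3-low, 912 to 949 on arrays labelled null and 800 to 847 in wild-type iPSC. Primitive endoderm markers summed to 26.4 to 34.8 in Tbx3-high and 16.6 to 18 in Tbx3-low mESC (5 of 9 higher), and to 4.83 to 4.98 on arrays labelled null and 10.72 to 12.5 in wild type (5 of 9 lower). Trophectoderm markers summed to 18.2 to 20.9 in Tbx3-high and 49.1 to 52.9 in Tbx3-low mESC (5 of 6 tested lower, 1 higher), and to 32.7 to 38.3 and 25.8 to 28.4 in labelled null and wild-type iPSC (3 of 6 tested higher, 1 lower). Elf5 was above background on no array, nor was Cdx2 on a Tbx3-high array.

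Neural markers summed to 9.51 to 9.98 on arrays labelled null, 3.90 to 4.15 in wild type, 5.10 to 6.18 in Tbx3-high and 6.82 to 7.33 in Tbx3-low mESC. Of the 4 tested in mESC 1 was higher and 1 lower, and of the 5 in iPSC 4 were higher. Fibroblast markers summed to 5.74 to 33.1 in Tbx3-high mESC and to between 5.85 and 9.10 in the other groups, with Postn above background on no array. Of the 10 tested in mESC 2 were higher and 2 lower, and of the 12 in iPSC 3 were higher and 2 lower. Blood and endothelium markers summed to 6.34 to 11.8, with Cdh5, Hbb-b1 and Lyz2 above background on no array. Some marker calls entered the test only through the brighter group and are not taken as support. They are Pdgfra (primitive endoderm) in both cell types, Col6a1 (fibroblast) in mESC, and Pax6 (neural) and Lum (fibroblast) in iPSC. The part of these cell types in the changes of the G1 genes was not tested.

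The genes whose levels over the 8 mESC arrays were most like those of 8 of the G1 genes, among 15002 genes compared, were Enpp3 for Cdkn2b (Pearson r = 0.999), Smc1b for Cdkn2a (0.998), Sfn for Ccne1 (0.998), Acap2 for Cdkn1b (0.996), Klk1b26 for Ccnd3 (0.991), Fkbp4 for Ccnd1 (0.982), Rnpepl1 for Cdkn1a probe 3 (0.978) and Tyms for Ccnd2 (0.951). These are descriptions over arrays that fall into 2 groups and share their slide. The r for Ccnd2 may rest largely on 1 array, Tbx3-high replicate 4, where Ccnd2 stood apart at -0.56. Cdk6 and Ccne2 were not compared in this way.

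Of the genes next to the 10 in the RefSeq gene order, leaving out members, 14 were tested in mESC, where 3 fell, and 15 in iPSC, where 3 rose and 1 fell. In Tbx3-high mESC, Fgf15 next to Ccnd1 fell by 1.37 ± 0.08 (adjusted p = 5.63e-07), Uri1 next to Ccne1 by 0.47 ± 0.08 (0.00134) and Trp53inp1 next to Ccne2 by 0.29 ± 0.08 (0.0194). The gene on the other side of Ccne1, 1600014C10Rik, gave -0.01 ± 0.13 (0.953). On the arrays labelled null, Taf8 next to Ccnd3 rose by 0.98 ± 0.18 (0.00242), Fgf15 by 0.54 ± 0.11 (0.00389) and Srsf3 next to Cdkn1a by 0.36 ± 0.09 (0.0121), and Rab44 on the other side of Cdkn1a fell by 0.69 ± 0.22 (0.0412).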

How the data were processed

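Agilent one-colour arrays of 12 total RNA samples were analysed. Per the file headers, Feature Extraction 10.7.3.1 made the processed intensity of each spot, background-subtracted and not scaled between arrays, with probes placed on mm9; mean spot and median local background intensities were also read. The deposited series table, used as an alternative, is on a log2 scale (r of 0.9988 or more with log2 mean signal, column medians 6.58 to 6.61); how it was scaled and whether background was removed is unknown here.

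Levels analysed were log2 processed signal minus that array's 75th percentile, control spots left out; outlier spots were left out and spots of a probe averaged. limma 3.58.1 in R 4.3.3 fitted 4 group means over all 12 arrays, with contrasts, eBayes and Benjamini-Hochberg adjustment over all probes tested (threshold 0.05). A probe was tested if all arrays of 1 or more of the compared groups were well above background for it. For a group with no array well above background, the fold is a bound: the bright group's mean against the mean, per array, of the higher of the lowest signal well above background and the probe's own. Errors are SE unless said, and precision is limited by the number of arrays.

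The gene set, the lists and the tests were chosen with earlier results of these data known. Every probe of the 10 genes is named; of each pathway list, at most the 3 genes with the smallest adjusted p past the threshold; for likeness, the genes with the highest r; neighbouring genes were chosen by position. Probes were named by accession (27656), symbol (3401), synonym (307) or the file alone (1509); 22808 have no gene name. On simulated data the fit recovered 46 of 100 changes of 0.5 and 90 of 100 of 1 (log2) in mESC, and 7 and 50 of 100 in iPSC. Far fewer probes were changed there than were called in the data. That makes the adjusted threshold stricter, so recovery in the data can be higher. Alternatives were quantile normalization, normexp (offset 50), the series table, no filter, 1 probe per gene, replicate and slide row blocks, each slide row alone, only the arrays compared, and leaving out each array.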

Additional observations from a re-analysis of the deposited data

Results flagged for a closer look

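Ccnd2 on Tbx3-high replicate 4 stood at -0.56, with a gap to the nearest other Tbx3-high array of 0.936 of the group's range, past Dixon's critical value for 4 samples. It was the only array so far from its group among the 34 groups of 4 arrays examined (17 probes in 2 mESC groups). By chance about 1 in 20 such groups passes that value, so 1 flag among 34 is no excess.

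For 5 probes the change with the Tbx3 label differed between mESC (high minus low) and iPSC (wild type minus labelled null) by the test of the difference in limma. The differences were -1.37 for Cdkn2b probe 1, -0.88 for Cdkn2a probe 1, 0.84 for Cdkn1b probe 2, -0.56 for Ccnd1 and -1.47 for Ccne2. The Ccnd1 difference passed in only 9 of 19 alternatives. Ccne2 was near background and tested only through wild-type iPSC. Its difference was -0.01 with normexp correction, so its call is not taken as support.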

How the results depend on the processing

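Of the 11 mESC calls, 6 passed in every alternative run (Ccne1 and Cdkn2a by both probes, Ccnd3 probe 1, Cdkn2b probe 1), as did both iPSC calls and 3 of the 5 differences; causes of the other shifts were not tested. Recovery on simulated data was low in iPSC. So few probes were changed there that it sets no bound on what the arrays can show. In mESC, 3 probes were lower with 1 probe per gene (where 1 probe of each gene is left) and 2 higher on slide row 2 alone; over all probes, row 1 alone gave 2280 higher and 2052 lower, and row 2 alone 2137 and 2276. In iPSC, lower probes of the 10 genes numbered 2 under quantile normalization, 1 under normexp, 3 with the series table, 1 with 1 probe per gene, and 0 to 2 leaving out 1 array. Over all iPSC probes, 2850 of the 17583 tested were lower with 1 probe per gene, beside 4634 of 36712 in the main fit. With only those arrays fitted 3576 were higher, and leaving out 1 array 3436 to 4591 were higher. Of the differences, 2 were higher with the slide row block and 2 to 4 lower leaving out 1 array. Over all probes 2470 of the 17746 tested were lower with 1 probe per gene, beside 3745 of 37071 in the main fit. Leaving out 1 array, 2727 to 4278 were higher.

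Signs turned only where the value did not pass. Ccnd2 in mESC was 0.23 on slide row 2 alone. In iPSC, quantile normalization gave -0.0293, 0.00729 and 0.0200 for Cdkn1a probes 3, 2 and 1 and -0.00563 for Cdkn2a probe 1; the series table gave -0.10 and 0.00836 for Cdkn1a probes 3 and 2; normexp gave 0.0914 for Cdkn1b probe 1 and 0.0893 for Ccne2. Leaving out 1 iPSC array, Cdkn1a probe 2 ran from -0.59 to 0.48, Cdkn1a probe 1 from -0.0262 to 0.0104, Ccnd3 probe 1 from -0.20 to 0.0442, Cdkn2b probe 2 from -0.10 to 0.27 and Cdkn2a probe 1 from -0.0108 to 0.15. For the difference, Ccne1 probe 1 was -0.18 and -0.17 under quantile normalization and the series table, and Cdkn1b probe 1 was 0.0666 under normexp; leaving out 1 array, Cdkn1a probe 2 ran from -0.91 to 0.16, Ccne1 probe 2 from -0.19 to 0.0212 and Ccne1 probe 1 from -0.0286 to 0.0993.

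Deviations of same-numbered mESC arrays correlated at 0.111, 0.122, 0.0948 and 0.0672, and of iPSC arrays at 0.0066, not all over 0.1, so the numbers were not taken as pairs. In mESC a number also marks a slide row: the 8 pairs of arrays in 1 row correlated at 0.0348 to 0.188 and the 8 across rows at -0.152 to -0.0435. With the replicate block 4 probes were higher and 8 lower in mESC (Ccnd1 added), 3 were higher in iPSC (Cdkn1b added) and 1 was higher and 3 lower for the difference (Ccne2 lost).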
